A study of Mus musculus with 9 samples.

Results

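Microglia are the resident macrophages of the brain, and complement is the protein cascade that marks cells and debris for uptake. The genes described here are Laptm5, C1qa, C1qb, C1qc, Csf1r, Aif1, Cd68, Tyrobp, Cx3cr1 and C3, which are microglial or complement genes by name. They were found by their symbol in the array's annotation, without use of their measured values. Of the 10 genes, 9 had a probe set with that symbol alone, and they held 13 of the 12422 probe sets that are not array controls and 9 of the 8251 genes named. C3, the central component on which the complement routes converge, was not analysed here.

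Total RNA from the forebrain of male C57BL mice, whose age the labels give as 4 weeks, was hybridised to Affymetrix U74Av2 arrays. Clozapine is an atypical antipsychotic, given at 12 mg/kg/day, and haloperidol is a typical antipsychotic that blocks dopamine receptors, given at 1.6 mg/kg/day. Both were taken up in the drinking water over 4 weeks, while the controls received no drug. All mice lived alone in a cage under a 12-h light cycle, with 2 weeks to settle in before the study. Each treatment held 10 of 30 animals, and 3 of these per group gave 1 array each with no pooling, so that the 9 arrays are 9 animals. The titles name the right side of the brain and the tissue entry names the left, so the side was not settled. The comparisons ask how long treatment with each drug left the forebrain's expression relative to no drug and to the other drug, at doses that differed.

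In the healthy brain, microglia are the main source of C1q, the first protein of the classical complement pathway. C1q is assembled from an A, a B and a C chain, each encoded by its own gene, and it can bind to synapses, which microglia then take up through the complement receptor made of Itgam and Itgb2. Microglia depend for survival on the receptor Csf1r and its ligands Csf1 and Il34, and neurons signal to them through Cx3cl1 and its receptor Cx3cr1. In RNA of whole forebrain, fewer microglia and less RNA per microglial cell cannot be told apart.

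In the RefSeq gene table of GRCm38.p6, C1qb, C1qc and C1qa follow each other with no other gene between them, on chromosome 4. The stretches upstream of C1qb and C1qc are printed because these genes lie side by side and their levels varied together across arrays, as given further on. They were read from the RefSeq promoter table on the minus strand, 5′ to 3′, and each stretch stops where the annotated span of its gene begins, which for C1qc lies 22 bases before the start used in the promoter table. The C1qb stretch is chr4:136886201-136886450 and the C1qc stretch is chr4:136892937-136893164. Capitals mark GAGGAA or its reverse complement TTCCTC, the core letters recognised by the myeloid factor PU.1, which the gene Spi1 encodes.
C1qb: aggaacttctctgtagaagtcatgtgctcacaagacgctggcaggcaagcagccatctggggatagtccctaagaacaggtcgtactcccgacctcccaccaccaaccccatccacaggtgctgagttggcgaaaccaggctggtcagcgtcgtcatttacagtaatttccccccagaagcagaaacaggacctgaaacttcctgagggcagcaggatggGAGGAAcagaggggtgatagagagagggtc
C1qc: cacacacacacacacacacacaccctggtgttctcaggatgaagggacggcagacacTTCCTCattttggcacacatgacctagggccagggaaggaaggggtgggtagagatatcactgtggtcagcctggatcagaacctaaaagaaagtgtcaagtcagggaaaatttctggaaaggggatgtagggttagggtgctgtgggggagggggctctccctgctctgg
Each stretch held 1 match when both strands were searched. Over windows of 300 bases, with 250 before and 50 after the start, 28.3% of the 32851 promoters in the table held GAGGAA on either strand. Of the 10 genes, 7 had a promoter in that table and 5 of the 7 held a match. Cd68 held 2, and Cx3cr1 and C3 held 0. A match is a description of letters and not of a binding site.

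The values are log2 values made with GCRMA, which corrects the background of each probe and brings the arrays to a common scale. Tests were run on the 7453 probe sets whose 9-array mean exceeded 3.45, the 40th percentile of such means. Of the 13 probe sets of these genes, 9, from 7 genes, passed this filter and 4 lay below it. Those below were the only probe sets of Aif1 and Cx3cr1 and the second ones of C1qb and Cd68. The number of arrays limits the precision: for a typical probe set, a group difference carried a standard error of 0.15 log2 units (the median).

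As a check of the cell type, 11 of 26 other microglial identity genes were measured above the filter and 6 lay below it. Ctss, a lysosomal protease rich in microglia, lay between 9.55 and 10.07, and Coro1a and Cd53, both leukocyte genes, lay between 6.0 and 6.90 and between 5.60 and 6.64. Below the filter were Itgam at 2.37 to 2.51, Spi1 at 1.96 to 2.07 and Fcer1g at 2.69 to 2.93. Trem2 and P2ry12 were not matched to a probe set, so the microglial label rests on part of the usual markers.

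Several arrays stood apart from the rest over all genes. On the first principal component of the tested probe sets, which held 50.1% of the variance, haloperidol 3, control 1 and clozapine 1 scored -19.8, -19.6 and -17.6. Another 5 arrays scored between 0.48 and 7.0, and control 3 scored 37.5. Control 3 also had the largest difference between 3′ and 5′ control probe sets, an RNA quality measure, at 1.73 against 0.81 to 1.46 elsewhere. Clozapine 1 held high values of neutrophil genes, and haloperidol 3 held pituitary transcripts, with Prl at 11.8 and Gh at 12.6. The scores cross the treatments, so values are given array by array, in the order of replicates 1, 2 and 3.

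C1qa, the A chain, measured 8.36, 8.13 and 7.79 in controls, 8.41, 8.06 and 8.06 under clozapine and 7.80, 8.16 and 8.11 under haloperidol. The highest values were in control 1 and clozapine 1, the lowest in control 3 and haloperidol 1, and the groups overlapped. Group means were 8.10 ± 0.29 (SD, n = 3) in controls, 8.18 ± 0.20 under clozapine and 8.02 ± 0.19 under haloperidol, and neighbours in this order lay within their spread. Clozapine minus control was 0.08 ± 0.18 (SE; 95% interval -0.32 to 0.49), and haloperidol minus control was -0.07 ± 0.18 (-0.48 to 0.33). Neither passed limma's test, with adjusted p of 0.99997 and 0.92.

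C1qb, the B chain, is represented by a bright and a dim probe set. The bright one measured 8.08, 7.57 and 7.06 in controls, 7.79, 7.46 and 7.63 under clozapine and 7.51, 7.31 and 7.86 under haloperidol. Controls 1 and 3 were the highest and lowest of all 9 arrays, so both drug groups lay inside the control range. Means were 7.57 ± 0.51, 7.63 ± 0.16 and 7.56 ± 0.28 (SD, n = 3 each). The differences from control were 0.05 ± 0.25 (-0.53 to 0.64) for clozapine and -0.01 ± 0.25 (-0.59 to 0.57) for haloperidol. The dim probe set lay between 1.18 and 1.32 on every array, far below the filter.

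C1qc, the C chain, measured 6.99, 6.79 and 6.12 in controls, 7.20, 6.44 and 6.74 under clozapine and 6.54, 6.56 and 6.90 under haloperidol. Clozapine 1 was the highest array and control 3 the lowest, and all groups overlapped. Means were 6.63 ± 0.46, 6.79 ± 0.38 and 6.67 ± 0.20 (SD, n = 3 each). Clozapine minus control was 0.16 ± 0.26 (-0.45 to 0.77) and haloperidol minus control was 0.04 ± 0.26 (-0.57 to 0.65), with adjusted p of 0.99997 and 0.98 by limma. For each of the 3 chains, the spread inside the control group was wider than any difference between group means.

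**Figure D1:**
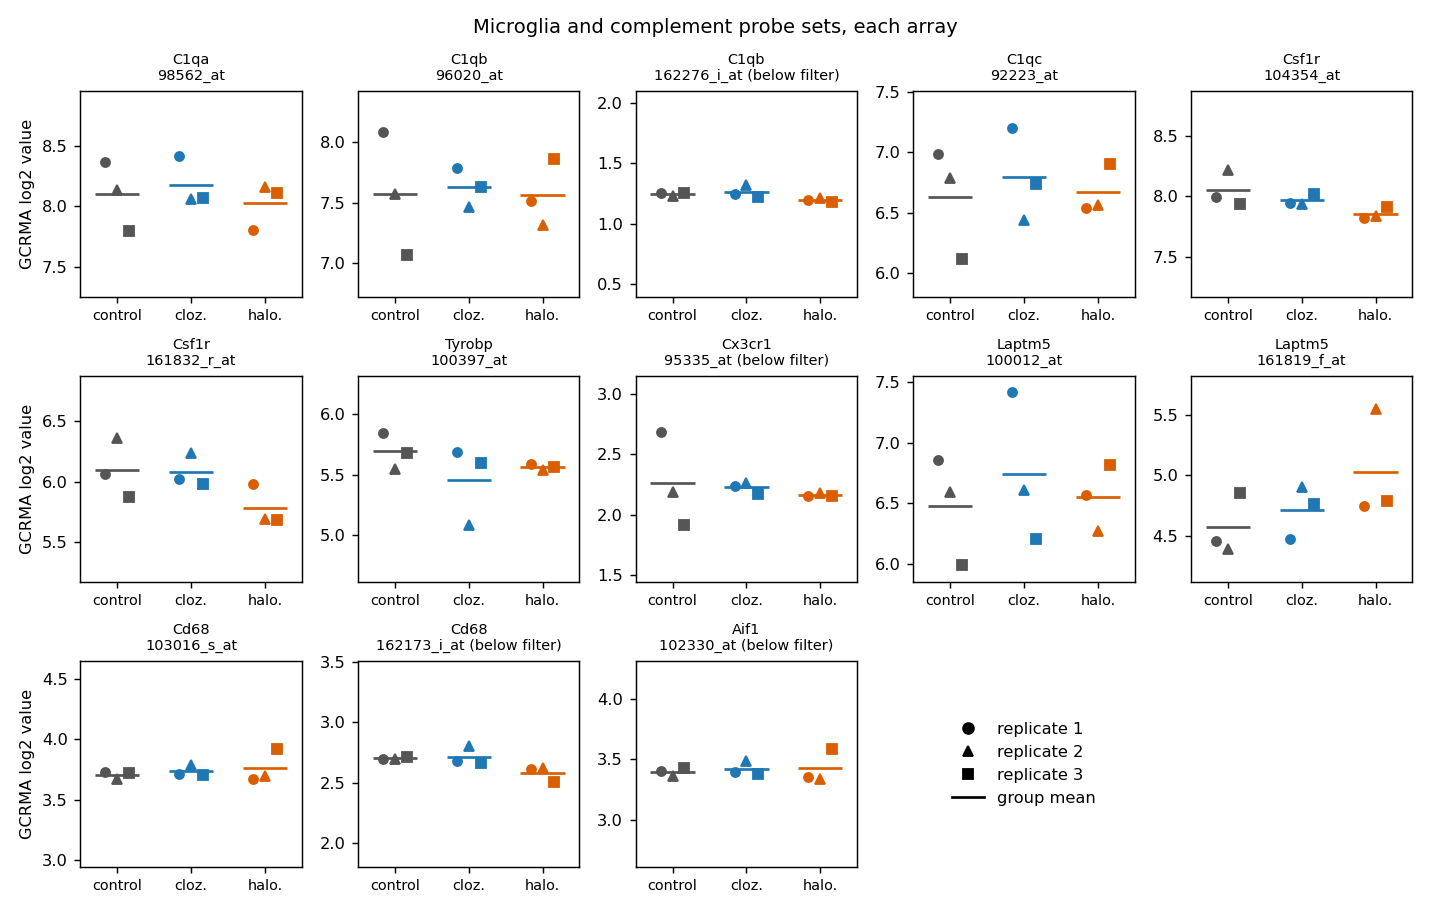
GCRMA log2 values (y axis) of the 13 probe sets in each array, by group (x axis), with circles, triangles and squares for replicates 1, 2 and 3 and a line at the group mean. The C1q chains spread most within controls, where C1qb runs from 7.06 to 8.08, and the bright Csf1r probe set is lowest under haloperidol, at 7.82 to 7.91.

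Csf1r, the receptor tyrosine kinase for Csf1 and Il34 that maintains microglia, has a bright and a dimmer probe set above the filter. The bright one measured 8.00, 8.22 and 7.93 in controls, 7.95, 7.94 and 8.02 under clozapine and 7.82, 7.83 and 7.91 under haloperidol. Every haloperidol array lay below every control and every clozapine array, while controls and clozapine overlapped. Means were 8.05 ± 0.15, 7.97 ± 0.045 and 7.86 ± 0.050 (SD, n = 3 each). Haloperidol minus control was -0.19 ± 0.09 (-0.41 to 0.02), a ratio of 0.874, with an unadjusted p of 0.072 and an adjusted p of 0.55 by limma.

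The dimmer Csf1r probe set measured 6.06, 6.36 and 5.88 in controls, 6.02, 6.24 and 5.98 under clozapine and 5.98, 5.69 and 5.68 under haloperidol. Here haloperidol 1 lay above control 3, so the groups overlapped, with haloperidol 2 and 3 the lowest of all arrays. Its haloperidol difference from control was -0.32 ± 0.15 (-0.66 to 0.03), with an adjusted p of 0.54 by limma. The differences between clozapine and control were -0.08 ± 0.09 for the bright and -0.02 ± 0.15 for the dimmer probe set. Over the 9 arrays the probe sets correlated at r = 0.70 (exact permutation p = 0.031; adjusted over the 4 genes with a second probe set, 0.12) and rho = 0.68 (exact permutation p = 0.052). Without haloperidol 1 and control 2, the arrays farthest from the median, r was 0.59.

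A low value under haloperidol was common on these arrays. Over all tested probe sets, 19.4% lay lower in every haloperidol array than in every control, and the bright Csf1r probe set was 1 of 9 probe sets of these genes to do so. When each array was centred on its median, the median haloperidol difference of all tested probe sets moved by 0.11, from -0.02 to 0.09. The Csf1r differences were then -0.09 for the bright and -0.21 for the dimmer probe set. After quantile normalization they were larger, at -0.23 and -0.36 (unadjusted p = 0.036 and 0.043, adjusted 0.77 and 0.78 by limma). In that fit, 472 of 7453 probe sets had an unadjusted p under 0.05 by limma for haloperidol against control. Without control 2, its highest array, the bright probe set gave -0.11 and the dimmer -0.19.

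Tyrobp, the adaptor that passes on signals from Trem2 and other myeloid receptors, measured 5.85, 5.55 and 5.68 in controls, 5.69, 5.08 and 5.59 under clozapine and 5.59, 5.54 and 5.56 under haloperidol. Clozapine 2 was low, the other 8 arrays lay between 5.54 and 5.85, and the groups overlapped. Clozapine minus control was -0.24 ± 0.16 (-0.61 to 0.13), the lowest unadjusted p of these genes in that comparison at 0.17 by limma. Without clozapine 2 the difference was -0.05. Haloperidol minus control was -0.13 ± 0.16 (-0.50 to 0.24).

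Cx3cr1, the receptor for the neuronal ligand Cx3cl1, lay below the filter at 2.68, 2.19 and 1.91 in controls. It lay between 2.17 and 2.26 under clozapine and between 2.15 and 2.18 under haloperidol. Its widest spread was among the untreated mice. Cx3cl1 itself was measured between 10.3 and 11.5, with clozapine minus control at 0.07 ± 0.31 and haloperidol minus control at -0.16 ± 0.31.

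Laptm5, a lysosomal membrane protein of microglia and of blood leukocytes, has 2 probe sets above the filter that did not move together. The brighter measured 6.86, 6.59 and 5.99 in controls, 7.42, 6.61 and 6.21 under clozapine and 6.57, 6.27 and 6.82 under haloperidol. Clozapine 1 was the highest array and control 3 the lowest. Clozapine minus control was 0.26 ± 0.34 (-0.51 to 1.04) and -0.07 without clozapine 1. Haloperidol minus control was 0.07 ± 0.34 (-0.70 to 0.85).

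The other Laptm5 probe set, whose suffix marks probes shared within a sequence family, measured 4.46, 4.39 and 4.85 in controls, 4.47, 4.90 and 4.76 under clozapine and 4.75, 5.55 and 4.79 under haloperidol. Haloperidol 2 stood highest there, an array in which the brighter probe set was among the lower ones. Its haloperidol difference was 0.46 ± 0.24 (-0.090 to 1.004), with an adjusted p of 0.57 by limma. Over 9 arrays the Laptm5 probe sets correlated at r = -0.53 (exact permutation p = 0.15, adjusted 0.29) and rho = -0.45 (exact permutation p = 0.23). The haloperidol differences of the brighter and the other Laptm5 probe set, 0.07 and 0.46, had overlapping intervals and were not tested against each other.

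Cd68, a lysosomal glycoprotein of macrophages, lay just above the filter at 3.73, 3.67 and 3.72 in controls, 3.71, 3.78 and 3.71 under clozapine and 3.67, 3.69 and 3.92 under haloperidol. Only haloperidol 3 stood away from the others. Differences from control were 0.03 ± 0.09 and 0.05 ± 0.09. Its second probe set lay below the filter at 2.69, 2.70 and 2.71 in controls, 2.68, 2.80 and 2.67 under clozapine and 2.62, 2.63 and 2.51 under haloperidol. There every haloperidol array was below the rest, with a difference from control of -0.12 ± 0.05 in the fit without a filter (adjusted p of 0.31 by limma). Of the 4969 probe sets below the filter, 88.4% likewise lay lower in every haloperidol array than in every control. Median centring of the arrays adds 0.11 to each haloperidol difference, about the size of this one. Haloperidol 3 was highest on one probe set and lowest on the other.

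Aif1, which encodes the calcium-binding protein Iba1 used to stain microglia, lay just below the filter. It measured 3.40, 3.36 and 3.43 in controls, 3.39, 3.49 and 3.38 under clozapine and 3.35, 3.33 and 3.59 under haloperidol. Only haloperidol 3 lay apart, as it did for the Cd68 probe set above the filter. In the fit without a filter, the differences from control were 0.02 ± 0.07 for clozapine and 0.03 ± 0.07 for haloperidol.

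Over the 9 tested probe sets, the clozapine differences from control had a median of 0.05, against 0.00 over all 7453, with 6 above 0 and 3 below. Of these 9, 0 passed limma's adjusted threshold of 0.05, 0 had an unadjusted p under 0.05 and 0 separated the groups. The background was 0% called after adjustment, 0.939% at the unadjusted threshold and 3.43% with no overlap in either direction. The split of 6 above and 3 below was the same after median centring and after quantile normalization.

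For haloperidol minus control, the median was -0.01 over the 9 tested probe sets and -0.02 over all, with 4 above 0 and 5 below. This split depended on the scaling: after median centring of the arrays 6 lay above and 3 below, where 68.0% of all probe sets lay above 0 against 46.4% as deposited, and after quantile normalization 3 lay above and 6 below. Limma's test gave 0 of 9 after adjustment and 0 of 9 at an unadjusted p under 0.05. Over all probe sets it gave 0% and 9.12%. The 1 of 9 that separated the groups, the bright Csf1r probe set, stands beside the background of 19.4% lower with no overlap.

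For clozapine minus haloperidol, 6 of 9 lay above 0 and 3 below, with a median of 0.11 against 0.03 over all. After median centring 5 lay above and 4 below, with 30.3% of all probe sets above 0 against 56.4% as deposited. Limma again gave 0 of 9 by either threshold, against 0% and 3.64% of all probe sets. The bright Csf1r probe set lay higher in every clozapine array, by 0.11 ± 0.09 (-0.10 to 0.33), as did 15.2% of all tested probe sets. The 3 control arrays serve in the comparison of either drug, so the comparisons share arrays. The F test over the 3 groups called 0% of probe sets, and the lowest adjusted p of any probe set in the 3 comparisons, in the order given, was 0.99997, 0.44 and 0.91.

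**Figure D2:**
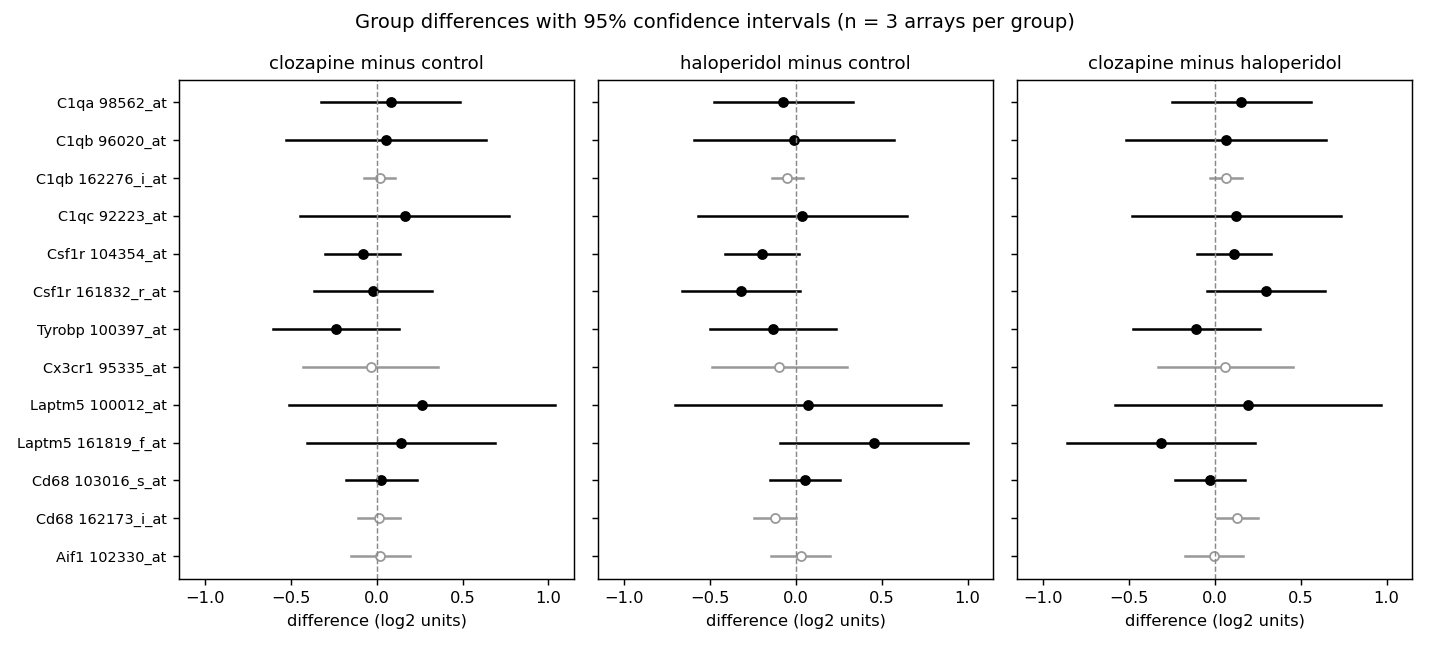
Differences between group means in log2 units (x axis) with 95% intervals for the 13 probe sets (y axis), in 1 panel per comparison, with open grey symbols for probe sets below the filter. All intervals of tested probe sets cross 0, and the nearest to leaving it are the Csf1r probe sets under haloperidol, at -0.41 to 0.02 and -0.66 to 0.03.

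The chains of C1q varied together from array to array. Across the 9 arrays, C1qb and C1qc correlated at r = 0.88 (exact permutation p = 0.0027) and rho = 0.88 (exact permutation p = 0.0031). For C1qa and C1qc these were r = 0.85 (exact permutation p = 0.0045) and rho = 0.87 (exact permutation p = 0.0045). For C1qa and C1qb they were r = 0.72 (exact permutation p = 0.030) and rho = 0.60 (exact permutation p = 0.097). Adjusted over the 3 pairs, the Pearson p-values by exact permutation were 0.0067, 0.0067 and 0.030.

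Leaving out the 2 arrays farthest from the median of the first gene gave r = 0.81, 0.80 and 0.59 for these pairs. Without control 3, the lowest array for every chain, r was 0.78, 0.78 and 0.57, and the pair of C1qa and C1qb no longer passed. That pair also failed without control 1, at r = 0.61. Removing each group's mean left r at 0.88, 0.86 and 0.73, so the relation was as large within the treatments.

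**Figure D3:**
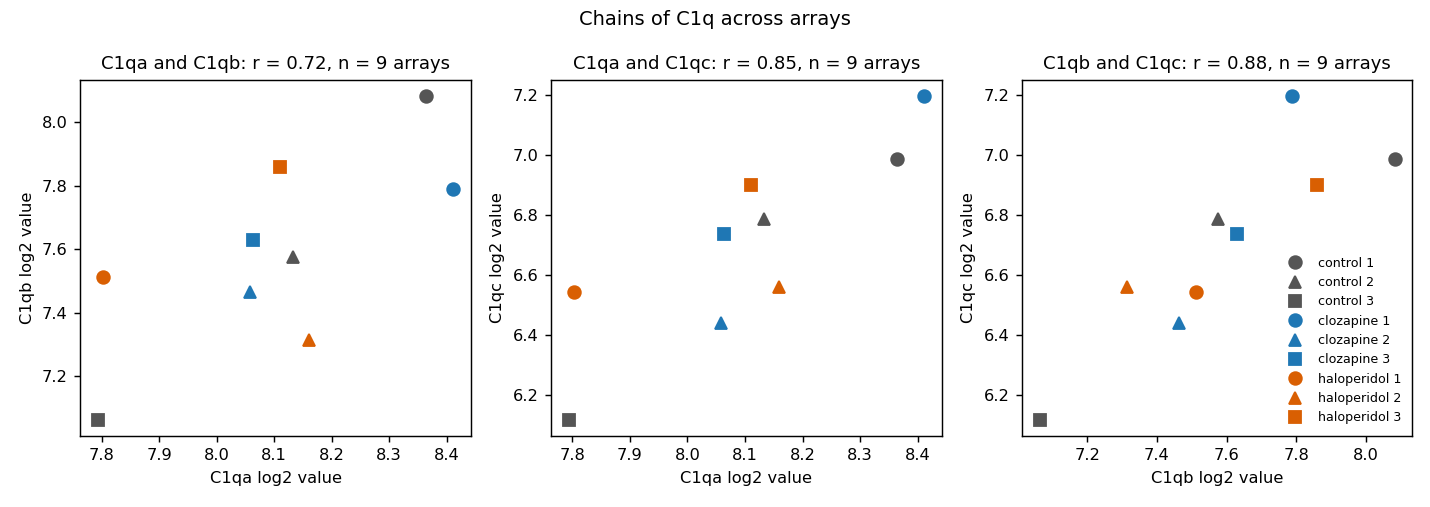
Log2 values of each pair of C1q chains plotted against each other, 1 point per array, coloured by treatment and shaped by replicate. Control 3 sits at the low end of every panel, control 1 and clozapine 1 sit at the high end, and r is 0.72, 0.85 and 0.88.

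Among the 7 genes above the filter, each by its brightest probe set, 19 of 21 pairs had a positive r, with a median of 0.26 against 0.00 over pairs of all 5650 tested genes. Adjusted over these 21 pairs, 3 had an exact permutation p under 0.05: C1qa with C1qc, C1qb with C1qc, and C1qc with Laptm5, at 0.040 each. C1qc and Laptm5 had r = 0.84 and rho = 0.77 (exact permutation p = 0.021), and without clozapine 1 and control 3 r was 0.51. Adjusted over the 21 pairs, the exact permutation p of rho was 0.15 for C1qc with Laptm5. It was 0.047 each for C1qa with C1qc and C1qb with C1qc. The other Laptm5 probe set, at r = -0.53 with the brighter one, was not part of these pairs. The r of Csf1r with the chains lay between 0.22 and 0.27, and without control 3 between 0.22 and 0.28. That of Tyrobp was 0.25, 0.34 and 0.37 with C1qa, C1qb and C1qc, and without control 3 it was 0.44, 0.63 and 0.70.

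Such correlations were frequent among the genes of these arrays. Of 5649 other tested genes, 4.25% followed C1qb at least as closely as C1qc did, 2.44% followed C1qa at least as closely as C1qc did, and 10.96% followed C1qa at least as closely as C1qb did. The arrays with high and low C1q were those set apart over all genes. The arrays that scored -19.8 to -17.6 on the first component held C1qb at 7.79 to 8.08, the 5 in the middle held it at 7.31 to 7.63, and control 3 held it at 7.06. For C1qc the same sets gave 6.90 to 7.20, 6.44 to 6.79 and 6.12. For Laptm5 they gave 6.82 to 7.42, 6.21 to 6.61 and 5.99.

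C1qa followed this order less fully, since haloperidol 3 at 8.11 lay inside the 7.80 to 8.16 of the middle arrays. Csf1r showed no such order: haloperidol 3, control 1 and clozapine 1 held it at 7.91, 8.00 and 7.95, and control 3 at 7.93. The sets hold 3, 5 and 1 arrays, too few for a correlation inside any of them. Some markers of other cells moved with them. The mean of 6 neuronal genes relative to their 9-array average was 0.44, 0.52 and 0.34 in control 1, clozapine 1 and haloperidol 3 and -1.05 in control 3. In control 3 this was mainly Camk2a at -3.65 and Syt1 at -1.87, while Snap25, Tubb3, Nefl and Gad1 lay between -0.35 and -0.03. Camk2a, Tubb3 and Nefl were highest in control 1, clozapine 1 and haloperidol 3. However, Gad1 was lowest in control 1, Syt1 was highest in clozapine 2 and Snap25 was highest in haloperidol 1. The mean of 6 astrocyte genes was 0.58 in control 3 and between -0.17 and 0.03 elsewhere, carried by Glul at 2.51 and Gfap at 0.72, whereas Aqp4 and Aldoc lay at -0.03 and -0.12. The part of these cells in the C1q values was not tested.

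The 3′ to 5′ difference, the RNA quality measure, ran against the C1q chains. Its r over the 9 arrays was -0.72 with C1qa, -0.68 with C1qb and -0.70 with C1qc (exact permutation p = 0.027, 0.042 and 0.034). Spearman's rho was -0.60, -0.50 and -0.53 (exact permutation p = 0.097, 0.18 and 0.15). Adjusted over 14 relations of 7 genes with array measures, the exact permutation p-values of r were 0.076, 0.085 and 0.079. No chain thus passed for the RNA quality measure. Without controls 2 and 3, r was -0.77, -0.45 and -0.61. Of all tested genes, between 18.5% and 23.7% were related to the RNA quality measure at least as strongly. Among the 14, relations with the first component passed for C1qb, C1qc and Laptm5 (adjusted exact permutation p = 0.0077, 0.0077 and 0.035). Of all tested genes, 5.96%, 5.68% and 15.5% were related to that component at least as strongly. Higher values of these genes went with lower scores. The component was made from the tested probe sets, which include these genes, so the relations are not independent of it. Its scores fall in the separate sets given above, with too few arrays for a correlation inside any of them.

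**Figure D4:**
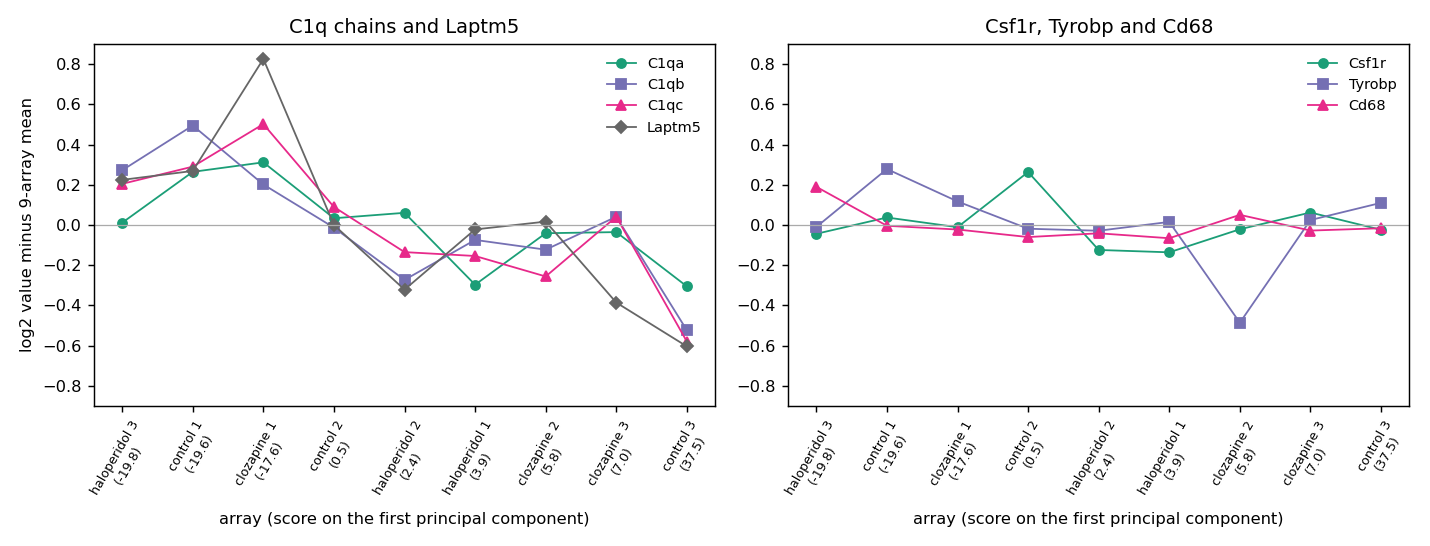
Log2 value minus the 9-array mean (y axis) for C1qa, C1qb, C1qc and Laptm5 (left) and for Csf1r, Tyrobp and Cd68 (right), with arrays ordered by their score on the first principal component (x axis, score in brackets). The C1q chains and Laptm5 end lowest in control 3, whereas Csf1r at 7.93 in that array lies close to its own mean.

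Clozapine 1 also held high values of several neutrophil genes. S100a8 and S100a9, calcium-binding proteins of neutrophils, measured 7.57 and 7.07 there, against 3.10 to 3.79 and 3.37 to 3.77 in the other 8 arrays. Lyz2, a lysozyme of neutrophils and macrophages, measured 4.36 against 3.63 to 3.78, and the haemoglobin gene Hba-a1 measured 10.6 against 8.58 to 10.2. Of 15 listed genes of neutrophils, lymphocytes and red cells, 12 had a probe set and 4 passed the filter. These were S100a8, S100a9, Hba-a1 and the lymphocyte gene Cd3g, which lay between 3.24 and 3.85 over all arrays. The lymphocyte genes Cd8a, Cd3e and Cd79b and the red cell gene Alas2 lay below the filter. The mean of the 4 that passed, relative to their 9-array average, was 1.89 in clozapine 1 and between -0.62 and 0.10 in the other arrays. Clozapine 1 is itself part of that average and raises it. Ltf and Mpo, which are also neutrophil genes, were not high in clozapine 1, at 2.94 and 2.85 against 2.67 to 3.01 and 2.75 to 2.94.

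Clozapine 1 was also the highest array for C1qa, C1qc and the brighter Laptm5 probe set, but not for Csf1r or Tyrobp. Without it, clozapine minus control was -0.07 for Laptm5. The part of blood cells in these values was not tested. On no array did a probe set of the genes described here exceed the highest control by more than 1 log2 unit.

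**Figure D5:**
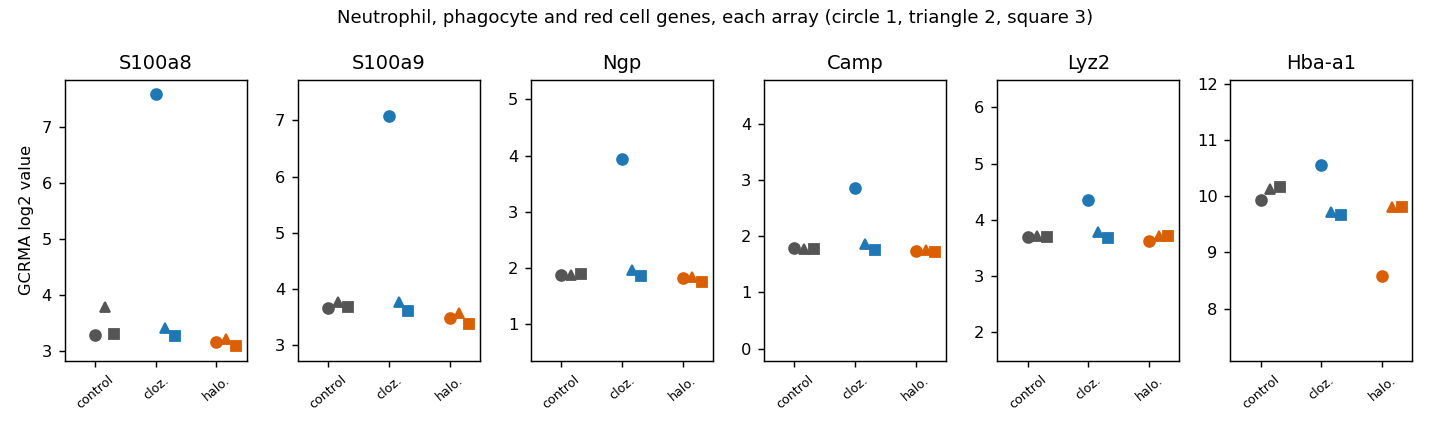
GCRMA log2 values (y axis) of neutrophil, phagocyte and red cell genes in each array by group (x axis). Clozapine 1 stands alone for S100a8, S100a9, Ngp, Camp and Lyz2, and haloperidol 1 is the lowest array for Hba-a1, at 8.58.

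Other genes of the same pathways were read by lists, with 0 genes called in any list or comparison by limma. At an unadjusted p under 0.05, the lists of complement, microglial, lysosomal, antigen presentation and border macrophage genes held 0 genes for clozapine against control, where the background was 0.939%. For haloperidol they held 2 of the 11 microglial identity genes and 0 in the other lists, where the background was 9.12%. Of 26 further complement genes, 6 were above the filter. The initiator protease C1ra, properdin (Cfp), which stabilises the alternative convertase, and the lectin pathway protease Masp2 differed from control by 0.02 ± 0.07, 0.08 ± 0.08 and -0.07 ± 0.12 under clozapine. Under haloperidol the differences were -0.05 ± 0.07, -0.0040 ± 0.08 and -0.27 ± 0.12. As deposited, all 6 lay below 0 under haloperidol, but 4 did after median centring and 5 after quantile normalization, and 0 of 6 had an unadjusted p under 0.05. The median of the 6 was -0.20, against -0.02 over all tested probe sets. C3ar1 and C5ar1, receptors for complement fragments, lay below the filter at 2.65 to 2.91 and 1.75 to 1.93. C4b was not matched to a probe set.

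Complement inhibitors protect cells from the cascade, and 6 of 8 were above the filter. Clusterin (Clu), which blocks the terminal complex, differed by 0.12 ± 0.30 under clozapine and 0.06 ± 0.30 under haloperidol. Vitronectin (Vtn) differed by -0.08 ± 0.14 and 0.00 ± 0.14, and Cd59a, which prevents pore formation, by -0.50 ± 0.37 and -0.45 ± 0.37. Serping1, the inhibitor of C1 proteases, lay below the filter at 2.30 to 2.72. The spread of Cd59a among arrays, from 4.61 to 6.48, exceeded its differences.

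Of the signals to microglia, 8 of 12 were above the filter, with 4 above and 4 below 0 under clozapine and 2 above and 6 below under haloperidol, under each scaling. Cd47, a neuronal "do not eat" signal, differed by -0.22 ± 0.37 under clozapine and -0.31 ± 0.37 under haloperidol, and its receptor Sirpa by 0.18 ± 0.21 and 0.16 ± 0.21. Csf1, a ligand of Csf1r, differed by -0.06 ± 0.22 and -0.11 ± 0.22. Tgfb1, which supports microglial identity, lay below the filter, and Il34 was not matched.

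Among microglial identity genes, 5 of 11 were above 0 and 6 below under clozapine, and 4 above and 7 below under haloperidol (6 and 5 after median centring). Ctss differed by 0.17 ± 0.14 and 0.25 ± 0.14, Coro1a by 0.19 ± 0.25 and 0.21 ± 0.25, and Cd53 by -0.23 ± 0.28 and -0.45 ± 0.28. Itgb2, the beta chain of the complement receptor that takes up tagged material, and Ptprc, the leukocyte phosphatase CD45, were the only ones with an unadjusted p under 0.05 for haloperidol against control and are named for that. Ptprc, read by the brightest of its 3 probe sets, measured 4.17, 4.36 and 4.44 in controls and 4.05, 4.01 and 3.83 under haloperidol. The groups did not overlap, and 19.4% of all tested probe sets likewise lay lower in every haloperidol array than in every control. The Ptprc difference was -0.36 ± 0.11 and that of Itgb2 was -0.32 ± 0.13, both with an adjusted p of 0.53 by limma. Median centring of the arrays adds 0.11 to each haloperidol difference. The unadjusted background in that comparison is 9.12%, as given before.

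Of 22 listed genes of activated microglia, 17 had a probe set, 5 of them above the filter and 12 below. Apoe, a lipid carrier of astrocytes and microglia, differed by 0.01 ± 0.29 under clozapine and 0.16 ± 0.29 under haloperidol. Of the tetraspanins, membrane organisers, Cd63 differed by 0.13 ± 0.17 and 0.32 ± 0.17 and Cd9 by -0.17 ± 0.17 and -0.33 ± 0.17. The cytokines Il1b, Il6 and Tnf lay below the filter on every array, at 2.67 to 2.91, 2.61 to 2.95 and 2.21 to 2.45. At these values the arrays could not show whether the cytokines differed.

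All 13 listed lysosomal genes were measured, with 10 above and 3 below 0 under clozapine and 5 above and 8 below under haloperidol (10 and 3 after median centring). Cst3, an inhibitor of cathepsins, differed by 0.11 ± 0.15 and -0.02 ± 0.15, the protease Ctsb by -0.12 ± 0.14 and -0.14 ± 0.14, and the lysosomal membrane protein Lamp1 by 0.19 ± 0.23 and 0.06 ± 0.23. Of antigen presentation genes, 5 of 10 were above the filter. B2m, the light chain of class I molecules, differed by -0.03 ± 0.24 and -0.01 ± 0.24, and the heavy chains H2-K1 by -0.06 ± 0.25 and -0.08 ± 0.25, and H2-D1 by 0.21 ± 0.29 and 0.11 ± 0.29. The probe sets of both heavy chains carry the suffix that marks probes shared within a sequence family, so their values may not be specific to these genes. H2-D1 was highest in clozapine 1, at 7.40, as the brighter Laptm5 probe set was.

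Markers of macrophages at the brain's borders and of blood monocytes were read as a check on the source of the signal. Of 9 genes, 3 were above the filter: Mrc1 at 4.14 to 4.75, Lgals3 at 3.88 to 4.21 and Lyz2. Lyve1 and Ccr2 lay below it, at 3.0 to 3.33 and 2.69 to 3.02. Mrc1 differed by -0.06 ± 0.14 under clozapine and -0.22 ± 0.14 under haloperidol, and Lgals3 by -0.01 ± 0.08 and -0.16 ± 0.08.

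The genes whose levels were most like each gene across the 9 arrays were found by Pearson's r over 5649 other tested genes, as a description. Closest to C1qa were Tomm40, Arrb1 and Fkbp8, at r = 0.98, 0.95 and 0.95. Closest to C1qb were Drap1, Ykt6 and Tsen34, at 0.99, 0.98 and 0.98, and closest to C1qc were Rabac1, Dbndd2 and Rex1bd, at 0.97 each. Laptm5 was followed by Fmnl1, H2-D1 and Aplp2 (0.95, 0.95 and 0.94), and Csf1r by Gtf3c1, Fam98a and Col3a1 (0.97, 0.93 and 0.92). Tyrobp had Dolpp1, Slc15a2 and Lemd2 (0.94, 0.91 and 0.88), and Cd68 had Rpap1, Usp29 and Mpv17 (0.98, 0.97 and 0.97). No chain of C1q had another chain among its 3 closest genes. The mean of the 7 genes was highest in clozapine 1 and control 1, at 0.27 and 0.23 above its average, and lowest in control 3, at -0.28, and Dynll2, Ndufb6, Unc45a, Ncl and Aldh7a1 followed it at r = 0.97 to 0.99.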

How the data were processed

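The authors deposited log2 values per probe set, made with GCRMA per the submitters' processing notes. Its version is not given in the sources used here. GCRMA compresses dim probe sets towards a floor, where small differences are hard to read. Arrays were assigned to groups by their titles. Of 12422 probe sets, 10833 carried 1 gene symbol in the platform annotation, updated through RefSeq (GRCm38.p6), which held 10817 of them. Lists used the brightest probe set of a gene.

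With limma 3.58.1 in R 4.3.3, 1 mean per group was fitted to the 9 arrays (6 residual and 2.03 prior degrees of freedom), and two-sided p-values were adjusted by Benjamini-Hochberg over 7453 probe sets. The fit was tested on simulated data. Correlations used exact permutation of the pairings. An exact test of 3 arrays against 3 cannot go below 0.1.

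The rule named all probe sets of the 10 genes, the 3 brightest genes of the other pathway lists and a set of chosen genes. Genes and lists were chosen with earlier results of these data known. Alternatives covered filter, floor, scaling, prior, weights, arrays fitted, replicate block and arrays left out.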

Additional observations from a re-analysis of the deposited data

Results flagged for a closer look

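Neutrophil genes that no comparison used stood out in clozapine 1, in probe sets below the filter. Ngp, a neutrophil granule protein, measured 3.94 there, against 1.87 to 1.89 in controls and 1.76 to 1.97 in the other treated arrays. Camp, the cathelicidin of neutrophil granules, measured 2.86, against 1.78 to 1.80 in controls and 1.71 to 1.85 in the other treated arrays. Both stood more than 1 log2 unit above the highest control, as did S100a8 and S100a9 in the same array. These were 4 such values among 154 probe sets looked at, of which 69 lay below the filter, and 0 of them belonged to the 9 microglial and complement genes.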

How the results depend on the processing

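The count of probe sets called was 0 in every comparison under all alternatives. Of 480 differences recomputed over 27 results and 18 alternatives, 447 kept their direction, 33 reversed and 0 were called, and 11 results never reversed. A changed filter, floor or prior did not move these differences, and leaving out an array of the group not compared cannot move them. Many of the 447 therefore could not have reversed. The lowest adjusted p by limma was 0.063, for Csf1r under haloperidol with array weights (differences -0.35 and -0.55). This equals the lowest adjusted p of any probe set in that fit. There, 1891 of 7453 probe sets had an unadjusted p under 0.05 by limma for haloperidol against control. The Csf1r differences from control under haloperidol ranged over the alternatives from -0.35 to -0.09 and from -0.55 to -0.19. Reversals among small differences, whose cause was not tested, were as follows. Centring each array on its median gave C1qa 0.033 and C1qb 0.095 for haloperidol minus control, and C1qb -0.036 for clozapine minus haloperidol. Quantile normalization gave C1qc -0.032 and array weights gave C1qc -0.12 and Laptm5 -0.049 for haloperidol minus control.

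Leaving out each array in turn gave the following ranges for results that reversed. For clozapine minus control they were -0.071 to 0.21 for C1qa, -0.20 to 0.31 for C1qb, -0.094 to 0.34 for C1qc and -0.073 to 0.53 for Laptm5. Csf1r ranged from -0.14 to 0.0033 and, on its dimmer probe set, from -0.13 to 0.11. For haloperidol minus control they were -0.22 to 0.061 for C1qa, -0.27 to 0.24 for C1qb, -0.22 to 0.22 for C1qc, -0.17 to 0.26 for Laptm5 and -0.027 to 0.10 for Cd68. For clozapine minus haloperidol they were -0.059 to 0.21 for C1qb, -0.079 to 0.30 for C1qc, -0.14 to 0.46 for Laptm5, -0.074 to 0.054 for Cd68 and -0.22 to 0.079 for Tyrobp. The lows of the C1q chains against control came without control 3.

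The correlation of C1qa with C1qb was 0.59 without the 2 arrays farthest from the median and ranged from 0.57 to 0.80 with single arrays left out, and the other pairs of chains kept their call throughout. Between same-numbered arrays, correlations of the deviations from group means ran from -0.60 to 0.70, and 3 of 9 were above 0.1. Clozapine 1 with control 1 reached 0.70, and clozapine 2 with haloperidol 2 reached 0.69. With 3 arrays per group, this check cannot settle whether the numbers pair the samples. With the replicate number as a block, 0 probe sets were called in each comparison. Low signal limits Aif1, Cx3cr1, Cd68 and the dim C1qb probe set.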

Other observations

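Probe sets near the array's floor lay slightly lower under haloperidol throughout the array. Of the 4969 below the filter, 95.3% had a haloperidol mean below the control mean, with a median difference of -0.09. The listed complement genes there, which include C9, Hc, C2, Cfi, Masp1 and Mbl1, lay between -0.17 and -0.06 in the fit without a filter. The cytokines Il1a, Il1b, Il6 and Tnf differed by -0.12, -0.10, -0.14 and -0.08, and the class II genes H2-Aa, H2-Ab1 and H2-Eb1 by -0.07, -0.06 and -0.04. The inhibitor Serping1, at 0.12, and Aif1, at 0.03, lay the other way. Under clozapine the cytokine differences were 0.00, 0.01, 0.02 and 0.01. None of these genes passed limma's test after adjustment. Centring each array on its median adds 0.11 to every haloperidol difference, about as much as these values. The array medians were 4.06, 4.06 and 4.01 under haloperidol and between 4.11 and 4.21 in all other arrays. The source of this shift was not tested.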
